A study of Mus musculus with 35 samples.

Results

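Interferon-stimulated antiviral genes are the genes that cells switch on to resist viruses once they sense an interferon. The 42 genes described here were taken by name from the 25655 genes of each deposited table, and all 42 were present in all 8 comparisons with an adjusted p. Messenger RNA was sequenced from whole retina of wild-type mice, in 35 samples of 7 groups. D8 depleted retina (4 samples) had 8 weeks of diabetes with microglia, the resident immune cells, depleted over the last 2 weeks. D10 repopulated retina (5 samples) had 10 weeks of diabetes, the same depletion and then 2 weeks of recovery, and ND repopulated retina (5 samples) had depletion and recovery without diabetes. D6, D8 and D10 retina (5 samples each) had 6, 8 and 10 weeks of diabetes, and ND retina (6 samples) was non-diabetic. All groups carry a wild-type genotype. The labels name the depleting treatment DTx while the series text names the drug PLX-5622 given in chow, so only the word depletion is used. PBS appears only in the labels of D8 and D10, and the numbers in the sample titles of D8 and D10 form a run apart from those of the other groups. What these numbers stand for is not stated. D8 depleted against D8 and D10 repopulated against D10, as well as D8 or D10 against ND or D6, therefore also differ by PBS and by that run, and these cannot be told apart from the named difference. How diabetes was induced, and the age, sex and number of animals, are not stated in the labels or series text. P-values measure the spread between samples that may not be separate animals.

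Type I and type III interferons bind receptors on the cell surface, and kinases on the receptors then start a signal to the nucleus. A complex that holds STAT2 and IRF9 binds a DNA element called the ISRE in the promoters of interferon-stimulated genes, while interferon gamma acts largely through another element, the GAS. The products include sensors of foreign nucleic acid, enzymes that degrade viral RNA or stop translation, and proteins that trap viruses at membranes. In the retina microglia, Muller glia and vascular cells can all respond to interferon.

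The values are the authors' own comparisons. For each gene a table holds the larger of both group means, the log2 fold change and its p-value, raw and adjusted. No values per sample were used, so depth is unknown, and only group means are given below. A mean was read where the group was the larger of its pair, and otherwise implied by the other group's mean and the fold change, as for most ND means. No source states the unit of these means, so levels of 1 gene are compared between groups, and no gene is compared with another. Summed levels of a marker list, used below, follow the genes of the list with the largest means. An error after ± is the standard error that the deposited p implies, and a gene was called at an adjusted p under 0.05. Because whole tissue was measured, fewer cells of a type and less RNA per cell cannot be told apart.

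Markers of rods, the main photoreceptors, were present in every group, with a summed level from 9235 in D8 depleted to 11310 in ND, which fits the label of retina. Of 14 microglia markers, all 14 were lower in D8 depleted than in D8, with summed levels of 7.35 and 38.7, which checks the label of depletion. The summed level was 21.6 in D10 repopulated against 40.9 in D10, and 31.3 in ND repopulated against 29.4 in ND. Sum and median can part: the sum was higher in D10 than in ND, while the median log2 fold change of the 14 was -0.09. Lens genes stood apart between groups: their summed level was 6.95 in D8 depleted, 1558 in D10 repopulated, 5624 in ND repopulated, 6668 in D6, 65.9 in D8, 1892 in D10 and 3307 in ND. Summed red cell genes were 38.9 in D8 depleted, 129 in D10 repopulated, 44.2 in ND repopulated, 25.7 in D6, 8.46 in D8, 9.37 in D10 and 99.0 in ND. The part of lens and blood RNA in the results below was not tested.

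Most of the 42 genes were higher in diabetic retina than in ND at all 3 times. At 6 weeks 32 of 42 rose and 0 fell, where 14.1% of all tested genes rose and 9.31% fell. At 8 weeks 25 rose and 1 fell, against 2.33% and 0.583% of all tested genes. At 10 weeks 38 rose and 0 fell, against 5.59% and 1.41%. The median log2 fold change of the 42 genes was 1.35 in D6, 1.31 in D8 and 2.21 in D10, each over ND, while the median over all tested genes was 0.04, 0.00 and 0.00. The 3 comparisons share the ND samples and are not independent of each other. Beside these calls, 3 of 8 neutrophil and monocyte markers rose in D6, 0 in D8 and 4 in D10 over ND, and microglia markers moved both ways (1 higher and 2 lower of 14 in D6, 2 and 0 in D8, 3 and 3 in D10). The part of these cells was not tested.

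**Figure D1:**
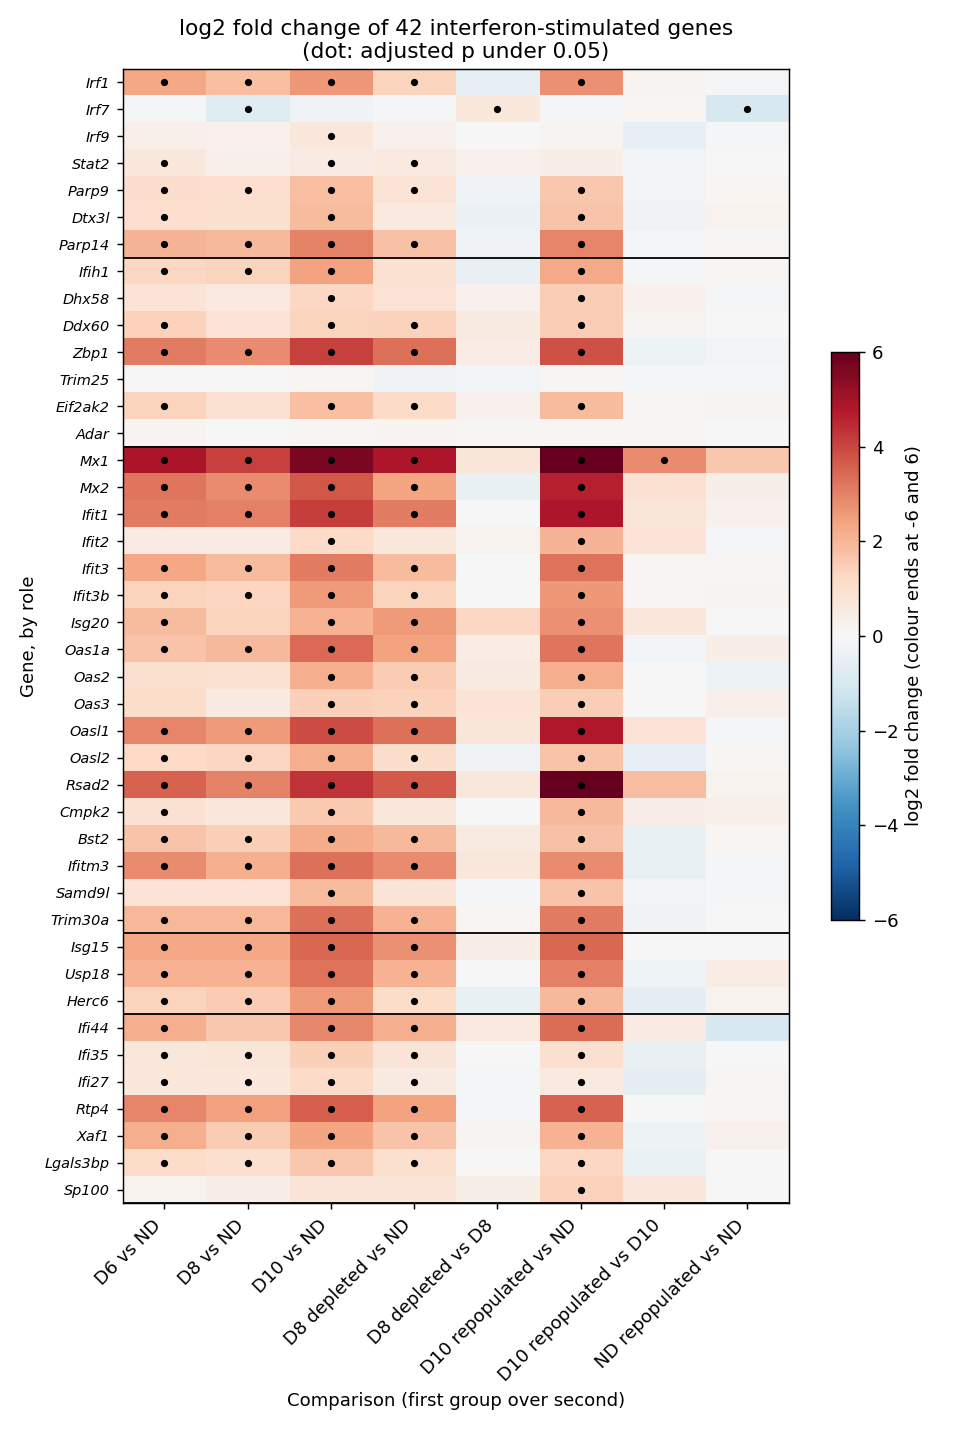
Rows are the 42 genes, grouped by role between the black lines (transcription factors and cofactors, sensors and RNA-binding regulators, effectors, the ISG15 system, others), columns are the 8 comparisons, colour is the log2 fold change of the first group over the second and a dot marks an adjusted p under 0.05. The 5 columns over ND with diabetes hold 32, 25, 38, 31 and 37 red cells with a dot, and the columns D8 depleted over D8 and D10 repopulated over D10 hold 1 dot each.

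Among the 7 transcription factors and cofactors, 5 rose in D6, 3 in D8 and 6 in D10 over ND. Beside this and the counts by role below, 14.1%, 2.33% and 5.59% of all tested genes rose in D6, D8 and D10. Irf1, a factor that responds directly to interferon gamma, had a group mean of 1.87 in ND, 9.36 in D6, 6.60 in D8 and 11.4 in D10 in the authors' deposited tables. Its log2 fold change over ND was 2.34 ± 0.41 in D6 (adjusted p = 1.35e-06), 1.80 ± 0.41 in D8 (adjusted p = 0.00125) and 2.59 ± 0.41 in D10 (adjusted p = 3.87e-08) in the authors' deposited tables. The ISRE-binding partners moved less. Irf9, the DNA-binding subunit, was called in D10 alone, at 0.66 ± 0.15 (adjusted p = 4.49e-04), and Stat2, its activating partner, rose by 0.63 ± 0.15 in D6 and 0.51 ± 0.15 in D10 in the authors' deposited tables. Irf9 shares an overlap on the same strand with Rnf31, so its reads may be split. Parp9 and Dtx3l, which form a complex with ubiquitin ligase activity, and Parp14, an ADP-ribosyltransferase next to them, rose together in D10, by 1.79 ± 0.30, 1.90 ± 0.34 and 2.98 ± 0.39 in the authors' deposited tables. Parp14 overlaps Gm49730 on the same strand, and Parp9 and Dtx3l overlap on opposite strands. How the counting treated strand is not stated, so reads of genes that overlap on opposite strands may not have been kept apart, as for Irf1 and Gm17334, Irf7 and Phrf1, Adar and Chrnb2, Oas2 and Gm43068, and Rtp4 and Masp1.

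Irf7, the factor that amplifies the production of type I interferon, did not rise with most of the other members. Its group mean was 17.0 in ND, 15.6 in D6, 10.4 in D8 and 14.9 in D10 in the authors' deposited tables. It fell in D8, by 0.73 ± 0.22 on the log2 scale (adjusted p = 0.0321), and was not called in D6 (-0.12 ± 0.22, adjusted p = 0.733) or in D10 (-0.20 ± 0.22, adjusted p = 0.762) in the authors' deposited tables. In no comparison with ND was it called higher.

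Of the 7 sensors and RNA-binding regulators, 4 rose in D6, 2 in D8 and 5 in D10. Zbp1, a sensor of Z-form nucleic acid that can start cell death, had a mean of 0.0616 in ND, 0.521 in D6, 0.463 in D8 and 1.10 in D10 in the authors' deposited tables. Its D10 over ND log2 fold change was 4.12 ± 0.53 (adjusted p = 2.93e-12), the fourth largest of the 42 in the authors' deposited table. Ifih1, which encodes the double-stranded RNA sensor MDA5, rose at all 3 times, by 2.41 ± 0.38 in D10 in the authors' deposited table. Dhx58, which encodes the related protein LGP2, was called in D10 alone, at 1.24 ± 0.35 (adjusted p = 0.00779) in the authors' deposited table. Ddx60, a helicase that aids RNA sensing, and Eif2ak2, which encodes the translation-blocking kinase PKR, rose in D6 and D10 but were not called in D8, at 0.86 ± 0.29 (adjusted p = 0.0788) and 0.90 ± 0.32 (adjusted p = 0.114) in the authors' deposited table. Trim25, a ubiquitin ligase of the RIG-I pathway, and Adar, the RNA editing enzyme, were called in none of the 8 comparisons. Both had small errors, with D10 over ND at 0.13 ± 0.13 for Trim25 and 0.06 ± 0.12 for Adar in the authors' deposited table.

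The 18 effectors had 14, 12 and 18 members called higher in D6, D8 and D10 over ND. The 4 largest rises of each time came from Mx1, Mx2, Ifit1, Rsad2 and Zbp1. Mx1, a GTPase that blocks virus replication in the nucleus, had a mean of 0.0140 in ND, 0.392 in D6, 0.238 in D8 and 0.695 in D10 in the authors' deposited tables. The fold change over ND was 4.92 ± 0.90 in D6 (adjusted p = 2.87e-06), 4.09 ± 0.90 in D8 (adjusted p = 5.97e-04) and 5.64 ± 0.90 in D10 (adjusted p = 3.05e-08), on the log2 scale, in the authors' deposited tables. With an ND mean this low the size of the fold is poorly fixed, as the wide error shows. Rsad2, which encodes viperin, an enzyme that makes a chain-ending nucleotide, had a mean of 0.257 in ND, 2.82 in D6, 2.01 in D8 and 5.18 in D10 in the authors' deposited tables. Its log2 fold change was 3.55 ± 0.72 in D6, 2.96 ± 0.72 in D8 and 4.33 ± 0.72 in D10 in the authors' deposited tables. Cmpk2, its neighbour, a nucleotide kinase, rose less, by 0.90 ± 0.34 in D6 and 1.55 ± 0.34 in D10, and was not called in D8 (0.64 ± 0.34, adjusted p = 0.483) in the authors' deposited tables.

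The Ifit genes lie side by side on chromosome 19, and Ifit1 encodes a protein that binds viral RNA lacking host cap marks. Ifit1 had a mean of 0.705 in ND, 5.84 in D6, 5.78 in D8 and 12.4 in D10 in the authors' deposited tables. Ifit3 had 6.13, 28.2, 22.6 and 53.6 in the same order, with a D10 over ND log2 fold change of 3.13 ± 0.43 (adjusted p = 5.55e-11) in the authors' deposited tables. Ifit2, from the same cluster, was called in D10 alone, at 1.15 ± 0.34 (adjusted p = 0.0140) in the authors' deposited table. Of the runs of 100 bases in the transcripts, 31.7% of those of Ifit3 are also found in Ifit3b, so reads may have been split between them.

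The OAS family is known for enzymes that make a short RNA-like messenger, which switches on RNase L, and Oasl1 is a family member without that activity. Of the 5 members of the family, 3 were called at all 3 times and 2 in D10 alone, and no difference between times passed for any of the 5 with variances added. Oas1a, Oasl1 and Oasl2 rose in all 3 comparisons, with D10 over ND at 3.38 ± 0.51, 3.93 ± 0.60 and 2.19 ± 0.26 in the authors' deposited table. Oas2 had a mean of 0.0959 in ND, 0.186 in D6, 0.188 in D8 and 0.434 in D10 in the authors' deposited tables. It was called in D10 alone, at 2.16 ± 0.43 (adjusted p = 2.16e-05), with 0.97 ± 0.44 in D6 (adjusted p = 0.0937) and 0.94 ± 0.44 in D8 (adjusted p = 0.364) in the authors' deposited tables. Oas3 was also called in D10 alone, at 1.43 ± 0.45 (adjusted p = 0.0270) in the authors' deposited table. Of the 100-base runs of Oas1a, 40.9% are shared with Oas1g.

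Ifitm3 had the smallest adjusted p of the 42 genes at each of the 3 times. Ifitm3, which blocks fusion of viruses in endosomes, had a mean of 10.7 in ND, 73.4 in D6, 48.5 in D8 and 106 in D10 in the authors' deposited tables. Its log2 fold change over ND was 2.83 ± 0.28 in D6 (adjusted p = 8.77e-20), 2.15 ± 0.28 in D8 (adjusted p = 5.24e-11) and 3.29 ± 0.28 in D10 (adjusted p = 2.18e-27) in the authors' deposited tables. Bst2, which encodes tetherin, a protein that holds budding viruses at the cell surface, had 2.48 in ND, 7.79 in D6, 6.68 in D8 and 11.7 in D10 in the authors' deposited tables. It rose by 1.72 ± 0.27, 1.41 ± 0.27 and 2.23 ± 0.26 over ND at the 3 times, in the authors' deposited tables. The other effectors include Isg20, an exonuclease of RNA, which rose in D6 and D10 (1.90 ± 0.46 and 2.09 ± 0.46), and Trim30a, a feedback ubiquitin ligase, which rose at all 3 times in the authors' deposited tables.

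All 3 members of the ISG15 system rose at all 3 times. Isg15, a ubiquitin-like protein that is linked to other proteins, had a mean of 1.69 in ND, 8.33 in D6, 8.56 in D8 and 18.7 in D10 in the authors' deposited tables. The log2 fold change over ND was 2.34 ± 0.44 (adjusted p = 5.07e-06), 2.32 ± 0.44 (adjusted p = 2.32e-05) and 3.45 ± 0.44 (adjusted p = 7.65e-13) in D6, D8 and D10, in the authors' deposited tables. Usp18, which removes ISG15 and damps the interferon receptor, rose by 3.25 ± 0.46 in D10, and Herc6, the ligase that attaches ISG15 in mice, by 2.55 ± 0.34 in the authors' deposited table. Of the 100-base runs of Herc6, 20.9% are shared with Gm45193.

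Of the 7 other members 6 rose in D6, 5 in D8 and 6 in D10. Rtp4, a receptor transporter protein gene, rose at all 3 times and by 3.58 ± 0.42 in D10, and Xaf1, a pro-apoptotic gene, by 2.38 ± 0.30 in the authors' deposited table. Ifi44 rose in D6 and D10, at 2.17 ± 0.55 and 2.87 ± 0.55, but was not called in D8 (1.61 ± 0.55, adjusted p = 0.0940) in the authors' deposited tables. Ifi27, Ifi35 and Lgals3bp, a secreted galectin ligand, rose at all 3 times by smaller steps, with D10 at 1.15 ± 0.18, 1.41 ± 0.22 and 1.62 ± 0.20 in the authors' deposited table. Sp100, a nuclear body protein, was not called at any of the 3 times. Of the 100-base runs of Rtp4, 11.2% are shared with Gm45338.

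**Figure D2:**
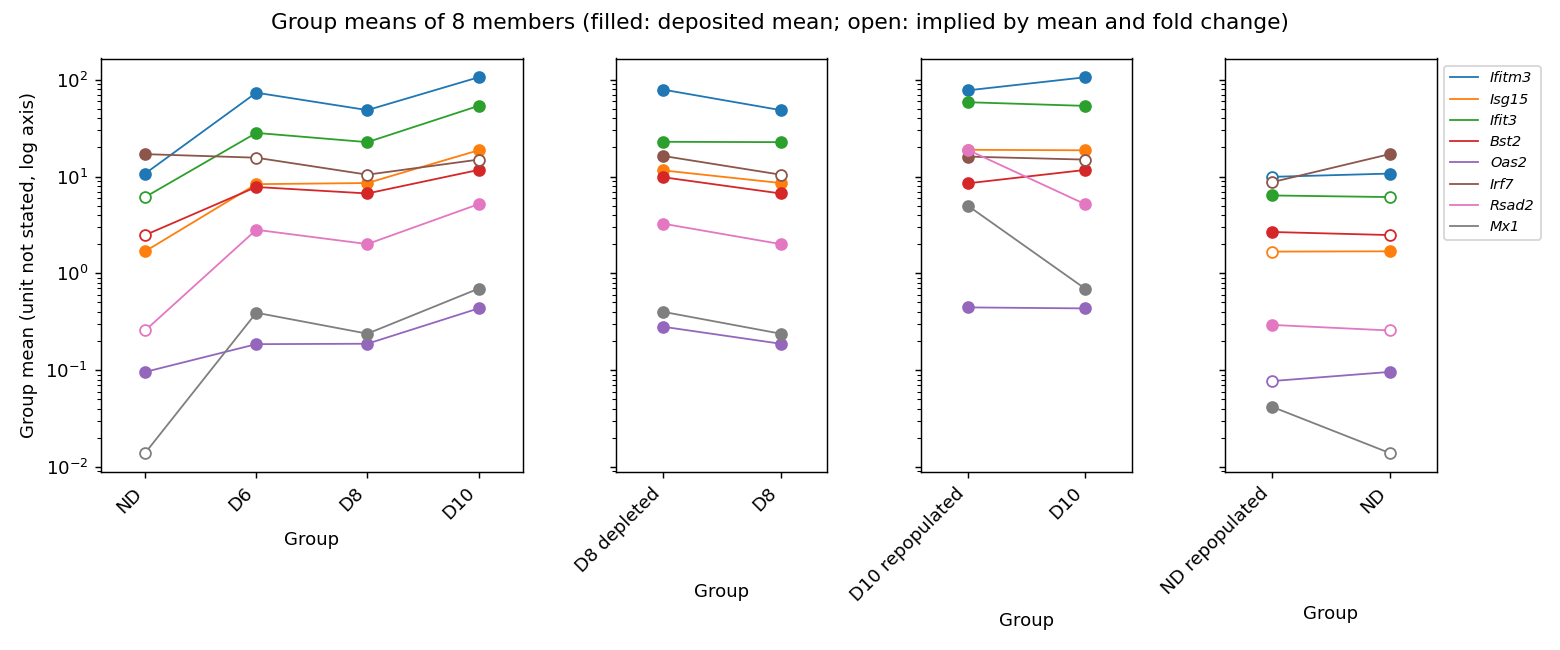
Group means of 8 members on a log axis, in the deposited unit, which is not stated; the left panel runs by time from ND to D10, and the others set each treated group left of its counterpart. Filled points are deposited means and open points are implied by the other group's mean and the fold change; Ifitm3 is 10.7 in ND and 106 in D10, Irf7 is lowest in ND repopulated at 8.75, and Mx1 and Rsad2 are higher in D10 repopulated, at 4.998 and 18.8, than in D10, at 0.695 and 5.18.

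Many promoters of the members hold the letters of the ISRE or the GAS. RefSeq promoters of 300 bases (250 before to 50 after the start, build GRCm38.p6) were matched for 32 of the 42 genes, in 41 promoters, and Mx1, Mx2, Zbp1 and 7 others had no entry. The ISRE core (GAAA, then any 2 bases, then GAAA, on either strand) was found in 14 of the 32 genes and in 15 of 41 member promoters (36.6%), while 3.44% of all 32851 promoters of this length hold it. A longer ISRE form, the core followed by CT, was found in 8 of the 32 genes. It was in 9 of 41 member promoters (22.0%), while 0.271% of all promoters hold it. The GAS letters (TTCNNNGAA, on either strand) were found in 9 genes, in 22.0% of member promoters and 8.30% of all promoters. Both motifs were present in 4 genes, the ISRE core alone in 10, GAS alone in 5 and neither in 13. The printed stretches show, 5′ to 3′, the 170 bases before the start of 8 genes and 27 bases of Ifitm3 just after its start, with motif letters in capitals, overlapping matches run together. They are shown because they hold clustered or single matches beside the rises above, or, for Irf7, none.
Isg15 (chr4:156200819-156200988, minus strand): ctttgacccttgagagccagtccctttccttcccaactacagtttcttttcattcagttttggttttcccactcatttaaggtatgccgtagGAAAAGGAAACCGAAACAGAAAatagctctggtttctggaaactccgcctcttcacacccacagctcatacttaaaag
Ifit1 (chr19:34640719-34640888, plus strand): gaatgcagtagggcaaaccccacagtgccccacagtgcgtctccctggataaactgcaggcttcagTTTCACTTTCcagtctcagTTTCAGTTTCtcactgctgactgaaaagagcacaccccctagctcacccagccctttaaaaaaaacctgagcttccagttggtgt
Ifit3 (chr19:34583359-34583528, plus strand): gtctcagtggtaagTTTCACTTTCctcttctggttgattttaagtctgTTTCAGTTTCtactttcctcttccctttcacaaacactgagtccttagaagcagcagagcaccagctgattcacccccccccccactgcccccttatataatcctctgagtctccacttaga
Ifit3b (chr19:34607787-34607956, plus strand): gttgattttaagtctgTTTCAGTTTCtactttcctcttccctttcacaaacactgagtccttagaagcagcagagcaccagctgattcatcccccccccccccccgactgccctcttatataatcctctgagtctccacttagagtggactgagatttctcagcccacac
Rsad2 (chr12:26456453-26456622, minus strand): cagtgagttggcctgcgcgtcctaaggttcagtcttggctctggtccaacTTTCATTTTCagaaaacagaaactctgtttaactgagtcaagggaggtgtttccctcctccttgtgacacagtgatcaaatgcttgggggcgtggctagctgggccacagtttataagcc
Bst2 (chr8:71537473-71537642, minus strand): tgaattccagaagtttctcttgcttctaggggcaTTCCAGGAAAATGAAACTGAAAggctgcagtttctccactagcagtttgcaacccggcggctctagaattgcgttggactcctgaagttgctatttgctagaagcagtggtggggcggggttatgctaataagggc
Irf1 (chr11:53769844-53770013, plus strand): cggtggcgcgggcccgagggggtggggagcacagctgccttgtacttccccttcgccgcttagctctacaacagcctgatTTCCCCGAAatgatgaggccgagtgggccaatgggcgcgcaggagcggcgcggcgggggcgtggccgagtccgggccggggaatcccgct
Irf7 (chr7:141266425-141266594, minus strand): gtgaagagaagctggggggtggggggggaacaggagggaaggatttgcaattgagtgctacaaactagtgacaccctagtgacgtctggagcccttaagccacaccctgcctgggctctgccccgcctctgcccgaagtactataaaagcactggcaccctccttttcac
Ifitm3 (chr7:141010716-141010742, minus strand): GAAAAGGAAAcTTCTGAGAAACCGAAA
Counted from the start, with bases before it negative, 3 ISRE cores overlap between -78 and -57 in Isg15. Ifit1 holds 2 cores between -104 and -76, and Ifit3 holds 2 further out. The Ifit3b promoter holds the same pair at a shift of 32 bases, where 201 of 268 compared positions were identical to Ifit3, and the printed stretch shows the nearer core. Bst2 holds 2 overlapping cores and a GAS match that overlaps the one further from the start. Ifitm3 holds 2 cores and a GAS match that overlaps the second, within the first 29 bases of the transcript. Irf1 holds a GAS match and no ISRE core. The Irf7 window holds neither set of letters, which says nothing of sites elsewhere.

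**Figure D3:**
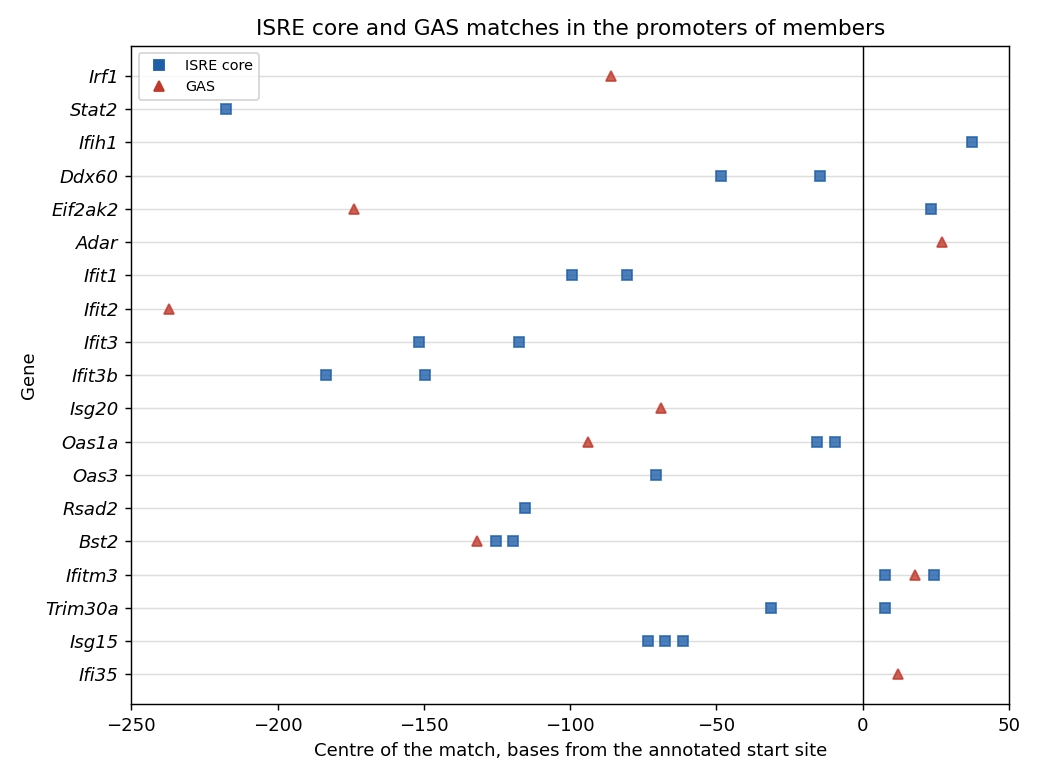
Positions of ISRE core matches (blue squares) and GAS matches (red triangles) in the promoters of the 19 genes that hold one, against the distance in bases from the annotated start (0), with each gene on a line of its own. The matches of Isg15 sit together before the start, those of Ifitm3 lie after it, and Trim30a is drawn with the matches of 2 annotated starts.

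Members with an ISRE core had a higher median fold change over ND than those without, as a description without a test. The 10 members with no promoter entry, among them Mx1, Mx2 and Zbp1, are in neither group. Ifit3 and Ifit3b, which hold the same pair of cores, are counted separately. The medians were 1.72 with the core (14 genes) and 0.95 without (18 genes) in D6, 1.65 and 0.92 in D8, and 2.84 and 1.76 in D10, from the authors' deposited tables. All 14 genes with the core were called higher in D10, and 14 of the 18 without.

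Between 8 and 10 weeks the fold changes over ND were compared directly. The difference of both log2 fold changes, D10 minus D8, was positive in 42 of 42 genes with a median of 0.92, against 0.01 over all tested genes. In the normal test of the difference, with variances added, 0 of 42 passed, 16 had an unadjusted p under 0.05 and 0% of all genes were called higher and 0% lower. D10 minus D6 was positive in 38 of 42 with a median of 0.68, 0 of 42 passed (9 unadjusted), and 0% and 0.0105% of all genes were called higher and lower. D8 minus D6 had a median of -0.12, 0 of 42 passed (1 unadjusted), and 0% and 0.021% of all genes were called higher and lower. Added variances overstate the error, because the ND samples enter both comparisons. With an estimate of the ND variance taken off, 2 of 42 passed in D10 minus D8 (Oasl2 and Ifitm3, where 0.455% of all genes passed in either direction), 7 in D10 minus D6 (5.44% of all genes) and 1 in D8 minus D6 (Irf7, lower, 6.57% of all genes). D8 and D10 share PBS and the run of title numbers, while D6 differs from both in them.

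Few of the 42 genes were called between D8 depleted and D8 retina. The count is not far from the share over all tested genes given next, so it is no result about them. In D8 depleted over D8, 1 of 42 members rose and 0 fell, where 5.85% of all tested genes rose and 4.9% fell, and 4 had an unadjusted p under 0.05. The median log2 fold change was 0.11, against a median of -3.64 for the 14 microglia markers, all of which fell. In the same comparison 5 of 8 lens genes fell and 4 of 5 red cell genes rose. The member that rose was Irf7, with a mean of 16.3 in D8 depleted retina and 10.4 in D8, a log2 fold change of 0.62 ± 0.17 (adjusted p = 0.00732) in the authors' deposited table. Isg20 was next, at 1.22 ± 0.44 (adjusted p = 0.0524) in the authors' deposited table. Ifitm3 had means of 78.9 in D8 depleted and 48.5 in D8, with 0.68 ± 0.31 (adjusted p = 0.146), and Bst2 had 9.82 and 6.68, with 0.53 ± 0.26 (adjusted p = 0.169), in the authors' deposited table. Ifit3 had 22.8 in D8 depleted and 22.6 in D8, a log2 fold change of -0.01 with a 95% interval of -0.72 to 0.71, in the authors' deposited table. Isg15 had 11.6 and 8.56 in the same groups, 0.42 with an interval of -0.45 to 1.28, and Oas2 had 0.281 and 0.188, 0.56 with an interval of -0.33 to 1.46, in the authors' deposited table. For 20 of 42 members the 95% interval lay within 1 log2 unit of 0.

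**Figure D4:**
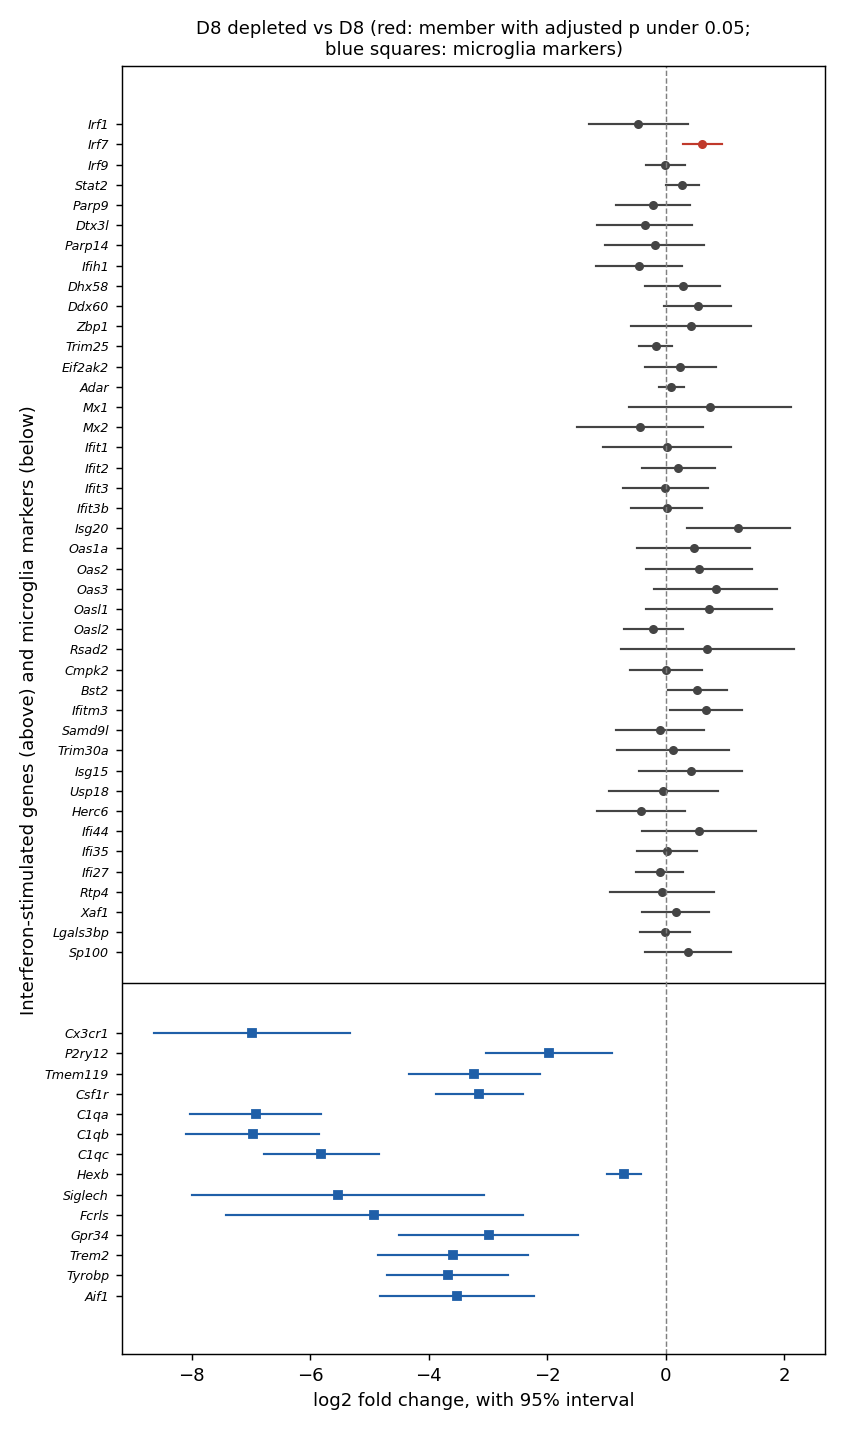
Log2 fold change of D8 depleted over D8 with its 95% interval, for the 42 interferon-stimulated genes above the line and 14 microglia markers below it. Irf7, in red, is the called member at 0.62, members lie between -0.47 and 1.22, and all 14 microglia markers, in blue, lie below 0.

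Against ND, D8 depleted retina still had 31 of 42 members called higher and 0 lower, where 15.5% of all tested genes rose and 13% fell. Neither group carries PBS, and the title numbers of both lie outside the run of D8 and D10. The median log2 fold change was 1.36, against 0.02 over all tested genes, beside 14 of 14 microglia markers lower. The largest rises were those of Mx1 (4.84 ± 0.94), Rsad2 (3.66 ± 0.77), Oasl1 (3.31 ± 0.64) and Zbp1 (3.29 ± 0.56) in the authors' deposited table. Ifitm3 rose by 2.84 ± 0.30 (adjusted p = 5.70e-18), Isg15 by 2.74 ± 0.46 (adjusted p = 2.75e-07), Bst2 by 1.95 ± 0.28 (adjusted p = 8.51e-10), Ifit3 by 1.88 ± 0.46 (adjusted p = 4.69e-04) and Oas2 by 1.504 ± 0.46 (adjusted p = 0.00641) in the authors' deposited table. Irf7 was not called, at -0.11 ± 0.23 (adjusted p = 0.771) in the authors' deposited table. Of 8 neutrophil and monocyte markers 3 rose in D8 depleted over ND and 2 over D8, with a summed level of 23.2 in D8 depleted, 6.60 in D8 and 2.99 in ND. Most of the sum in D8 depleted came from S100a9 (14.2) and S100a8 (6.95). The part of these cells in the members' values was not tested. T and NK cell markers summed to 0.283 in D8 depleted, 0.193 in D8 and 0.207 in ND, with Ncr1, a defining NK cell gene, listed at 0 in every table and 1 of 11 (Cd8a) higher in D8 depleted over ND.

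Few genes of any kind were called between D10 repopulated and D10 retina, so the low count among the 42 is no result about them. In D10 repopulated over D10, 1 rose and 0 fell, where 0.178% of all tested genes rose and 0.267% fell, and 8 members had an unadjusted p under 0.05. The median log2 fold change was -0.02, with 21 members above 0 and 21 below. The member that rose was Mx1, with a mean of 4.998 in D10 repopulated, 0.695 in D10 and 0.0140 in ND, and a log2 fold change over D10 of 2.82 ± 0.73 (adjusted p = 0.0339), in the authors' deposited tables. Rsad2 had 18.8 in D10 repopulated and 5.18 in D10, a log2 fold change of 1.84 ± 0.67 that did not pass (adjusted p = 0.297), in the authors' deposited table. Ifi27, a mitochondrial protein gene, had 12.9 and 19.2, a log2 fold change of -0.58 ± 0.16 (adjusted p = 0.0728), in the authors' deposited table. Isg15 had 18.9 in D10 repopulated and 18.7 in D10, with 0.01 ± 0.39, and Ifit3 had 58.5 and 53.6, with 0.11 ± 0.41, in the authors' deposited table. Bst2 had 8.50 and 11.7 (-0.46 ± 0.27), Ifitm3 had 77.6 and 106 (-0.44 ± 0.16, adjusted p = 0.322) and Oas2 had 0.445 and 0.434 (0.02 ± 0.41) in the same groups, in the authors' deposited table. For Isg15 the 95% interval ran from -0.75 to 0.76, and for 26 of 42 members it lay within 1 log2 unit of 0. Microglia markers fell in 4 of 14 cases in this comparison, and red cell genes rose in 4 of 5.

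Over ND, D10 repopulated retina had 37 of 42 members called higher and 0 lower, where 7.49% of all tested genes rose and 4.19% fell. The median log2 fold change was 2.07, against 0.02 over all tested genes, and all 18 effectors rose. The largest were Mx1 (8.47 ± 0.89, adjusted p = 3.02e-18), Rsad2 (6.18 ± 0.72, adjusted p = 7.72e-15), Ifit1 (4.86 ± 0.56, adjusted p = 3.07e-15) and Oasl1 (4.79 ± 0.60, adjusted p = 5.72e-13) in the authors' deposited table. Ifitm3 rose by 2.85 ± 0.28, Isg15 by 3.46 ± 0.44, Ifit3 by 3.25 ± 0.43, Oas2 by 2.19 ± 0.43 and Bst2 by 1.78 ± 0.26 in the authors' deposited table. Sp100 rose here, by 1.40 ± 0.37 (adjusted p = 0.00267), in the authors' deposited table. The 5 members that did not pass were Irf7, Irf9, Stat2, Trim25 and Adar. In the same comparison 8 of 14 microglia markers fell, with a median log2 fold change of -0.67. Neutrophil and monocyte markers, of which 3 of 8 rose over ND, summed to 17.1 in D10 repopulated, 12.9 in D10 and 2.99 in ND, and their part in these values was not tested.

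Hardly any gene was called after repopulation without diabetes, so the lack of called rises among the 42 is no result about them. In ND repopulated over ND, 0 members rose and 1 fell, where 0.0844% of all tested genes rose and 0.0714% fell, and 1 member had an unadjusted p under 0.05. The member was Irf7, with a mean of 8.75 in ND repopulated and 17.0 in ND, which fell by 0.96 ± 0.22 on the log2 scale (adjusted p = 0.00883) in the authors' deposited table. The median over the 42 genes was 0.05, and 30 of 42 intervals lay within 1 log2 unit of 0. Isg15 had 1.68 in ND repopulated and 1.69 in ND, Ifit3 had 6.37 and 6.13, Bst2 had 2.67 and 2.48, Oas2 had 0.0773 and 0.0959, and Ifitm3 had 9.92 and 10.7, in the authors' deposited table. Mx1 had the widest interval, with 0.0417 in ND repopulated and 0.0140 in ND, 1.64 ± 0.94 (adjusted p = 1.00), in the authors' deposited table.

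**Figure D5:**
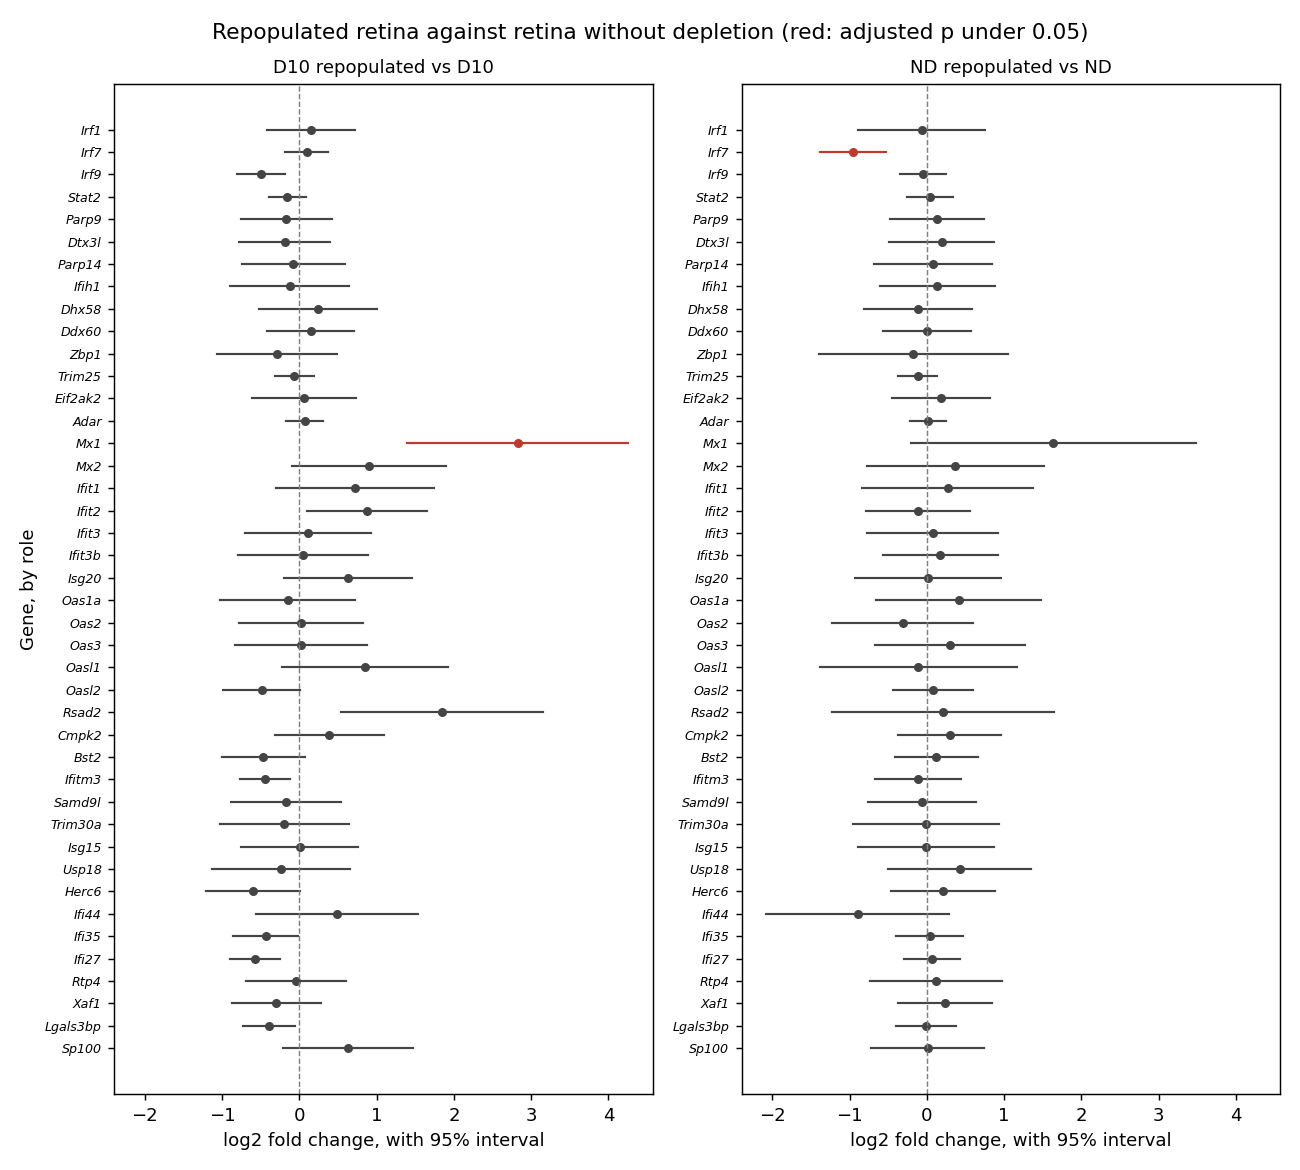
Log2 fold change with its 95% interval of the 42 genes in D10 repopulated over D10 (left) and ND repopulated over ND (right), with called members in red. Mx1 at 2.82 is the red point on the left and Irf7 at -0.96 the red point on the right; the other intervals of the right panel all include 0.

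Differences between these effects were tested directly. Depletion in diabetic retina (D8 depleted over D8) minus repopulation (D10 repopulated over D10) passed for 0 of 42 members, where 0.332% of all genes were called higher and 0.27% lower, and 6 had an unadjusted p under 0.05. With errors implied by the authors' deposited p-values, the smallest adjusted p was that of Ifitm3, at a difference of 1.12 ± 0.35 (adjusted p = 0.101). The effect of repopulation in diabetic minus in non-diabetic retina passed for 1 member, Irf7, with 0.09 in D10 repopulated over D10, -0.96 in ND repopulated over ND in the authors' deposited tables, and a difference of 1.05 ± 0.26 (adjusted p = 0.0356). In that test 0.0657% of all genes were called higher and 0.0876% lower. This test was added after the data were seen.

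Among repopulated retinas, D10 repopulated was higher than ND repopulated for 31 of 42 members and lower for 0, with a median log2 difference of 2.00. Of all tested genes 2.02% were higher and 0.515% lower, and with the ND variance taken off 37 of 42 members passed, as did 9.72% of all genes in either direction. Both groups went through depletion and recovery, and neither carries PBS. From the authors' deposited tables, Ifitm3 had the smallest adjusted p, at 2.96 ± 0.40 (adjusted p = 8.06e-10), and Rsad2 had 5.97 ± 1.03 (adjusted p = 3.40e-06). D10 repopulated minus D8 depleted had a median of 0.78 and was positive in 38 of 42 members. D10 repopulated had 10 weeks of diabetes and a recovery, and D8 depleted had 8 weeks and none. Time and recovery therefore cannot be told apart in this difference. With variances added 0 of 42 passed, 12 had an unadjusted p under 0.05, and 0.752% of all genes were higher and 0.142% lower. With the ND variance taken off 12 of 42 passed, all higher, as did 9.72% of all genes. From the authors' deposited tables, Mx1 had the smallest adjusted p there with variances added, at 3.63 ± 1.30 (adjusted p = 0.157).

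The interferon genes themselves were listed at or near 0. Of 13 listed ligand genes none was called in any comparison, 0 to 3 had an adjusted p, and the largest group mean of any was 0.0204 in the deposited tables, for Ifng in D8 depleted. Ifnb1, which encodes interferon beta, had no adjusted p in any comparison. Of 51 listed pathway genes in the tables, these 13 ligands included, 14 rose and 3 fell in D6, 5 rose and 0 fell in D8, and 15 rose and 0 fell in D10, each over ND. In D8 depleted over ND 8 rose and 3 fell, in D10 repopulated over ND 13 rose and 1 fell, and in D10 repopulated over D10 and ND repopulated over ND 0 passed. Between 37 and 41 of the 51 had an adjusted p. The shares of all tested genes that rose and fell were 14.1% and 9.31% in D6, 2.33% and 0.583% in D8, 5.59% and 1.41% in D10, 15.5% and 13% in D8 depleted and 7.49% and 4.19% in D10 repopulated, each over ND. The 8 and 3 of 41 in D8 depleted are near that background and are no result about the pathway. The same holds for the 0 that passed after repopulation. Of all tested genes 0.178% rose and 0.267% fell in D10 repopulated over D10, and 0.0844% and 0.0714% in ND repopulated over ND.

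Of the receptor genes, Ifnar2, a chain of the type I receptor, had a mean of 1.99 in ND, 2.71 in D6, 2.80 in D8 and 3.56 in D10, and rose by 0.82 ± 0.18 in D10 (adjusted p = 1.98e-04) in the authors' deposited tables. Ifnlr1, a chain of the type III receptor, rose by 1.51 ± 0.36 in D10, and Ifnar1, the other type I chain, was called in no comparison, in the authors' deposited tables. Ddx58, which encodes the RNA sensor RIG-I, rose by 1.22 ± 0.31 in D6, 1.23 ± 0.31 in D8 and 2.13 ± 0.31 in D10 in the authors' deposited tables. Ifi204, a DNA sensor gene, rose by 3.26 ± 0.61 in D10 and 3.81 ± 0.61 in D10 repopulated over ND in the authors' deposited tables. Of 7 listed inhibitors of the pathway, 4 rose and 1 fell in D6, and 2 rose and 0 fell in both D8 and D10, each over ND. The 2 that rose at all 3 times were Socs3 and Socs1. Socs3, an inhibitor of receptor kinases that also answers to other cytokines, had a mean of 1.54 in ND, 7.60 in D6, 6.22 in D8 and 11.2 in D10, and Socs1, a closer inhibitor of interferon receptors, 0.214, 0.575, 0.606 and 0.947 in the authors' deposited tables. Tnfaip3, an inhibitor of NF-kB signalling, fell in D6, by 0.58 ± 0.14 on the log2 scale (adjusted p = 9.83e-04), and Pias1 and Irf2bp1 were called at none of the 3 times, in the authors' deposited tables. In D8 depleted over D8 Aim2, a DNA sensor, rose by 1.11 ± 0.34 (adjusted p = 0.0188) and Jak1, a receptor kinase, fell by 0.37 ± 0.10 on the log2 scale (adjusted p = 0.00914) in the authors' deposited table. Of 38 listed pathway genes with an adjusted p in that comparison 1 rose and 1 fell, where 5.85% of all tested genes rose and 4.9% fell. These counts are not above that background and are no result about the pathway.

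The 42 genes lie on 15 chromosomes in build GRCm39, and 16 of them lie within 200 kb of another member. The Ifit genes span chr19:34528094-34627409 on the plus strand, with Ifit2, Ifit3, Ifit3b and Ifit1 in that order. Members of 1 cluster did not always move alike: in D10 over ND Ifit1 rose by 4.14 ± 0.56 and Ifit2 by 1.15 ± 0.34, and Rsad2 by 4.33 ± 0.72 and its neighbour Cmpk2 by 1.55 ± 0.34, in the authors' deposited table. Mx1 and Mx2, also neighbours, rose by 5.64 ± 0.90 and 3.73 ± 0.57 in the same authors' deposited table, and the differences within these pairs were not tested.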

How the data were processed

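Stranded poly(A) libraries of mouse retina were read as 100 bp pairs, per the labels' protocols, with bcl2fastq and GRCm39 named in the submitters' processing notes. No source used here names the aligner, counting tool, test or scaling. As deposited, 8 tables by the authors hold log2 fold changes, p-values with FDR p-values, and a signal level, the larger group mean, per the file headers. The deposited FDR values equal Benjamini-Hochberg values within 0.000489. The table of D10 repopulated and D10 runs the other way, and was reversed here. Each standard error is the log2 fold change over the normal quantile of p. Differences between comparisons were tested by a normal test with variances added and Benjamini-Hochberg adjustment over all genes, a step tested on simulated data. Group means found in 2 or more tables matched in 80 of 83 cases (relative tolerance 1e-06).

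The members and the pathway and marker lists (microglia, T and NK cells, neutrophils and monocytes, plasmacytoid dendritic cells, Muller glia and astrocytes, endothelium, rods, lens, red cells) were chosen with earlier results of these data known. Full statistics go to the 4 largest rises per comparison and to Irf7, Isg15, Ifit3, Oas2, Bst2 and Ifitm3; other members are named by role. Alternatives were other thresholds, a level filter, omission of paralogs and removal of the ND variance. Python 3.11.15, numpy 2.4.6, pandas 2.3.3 and scipy 1.17.1 were used.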

Additional observations from a re-analysis of the deposited data

Results flagged for a closer look

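For Irf7 the repopulation fold changes with and without diabetes differed, in a test added after the data were seen. Irf7 overlaps Phrf1 on the opposite strand, and how the counting treated strand is not stated. Its log2 fold change was 0.09 in D10 repopulated over D10 and -0.96 in ND repopulated over ND, in the authors' deposited tables, a difference of 1.05 ± 0.26 (implied standard error; normal test, adjusted p = 0.0356 over all genes). The group means were 16.0 in D10 repopulated and 14.9 in D10, and 8.75 in ND repopulated and 17.0 in ND. D10 carries PBS and ND does not, so the diabetic pair also differs by PBS and by the run of title numbers. Without values per sample, single samples far from their group could not be looked for.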

How the results depend on the processing

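No call reversed under any alternative run, and the medians of the 42 genes moved by less than the spread in all 32 alternatives, among them those without 7 close paralogs or without members that share over 10% of their 100-base runs. Leaving out the lowest 40% of genes by mean level gave 20 called members in D6, 16 in D8, 19 in D10, 19 in D8 depleted and 17 in D10 repopulated over ND, of 25, 22, 22, 25 and 22 members left in, so fewer genes were counted. Bonferroni adjustment gave 16 in D6, 11 in D8 and 11 in D8 depleted over ND. In D8 depleted over D8 an adjusted p under 0.10 gave 2, and both Bonferroni adjustment and an absolute log2 of at least 1 gave 0. In D10 repopulated over D10 an adjusted p under 0.10 gave 2, and an adjusted p under 0.01, Bonferroni adjustment, the level filter and omission of paralogs, of which Mx1 is one, gave 0. In ND repopulated over ND Bonferroni adjustment and the absolute log2 gave 0. With the ND variance removed 2 members passed in D10 minus D8, 1 in D8 minus D6, 7 in D10 minus D6 and 12 in D10 repopulated minus D8 depleted; that variance is an estimate from 2 closed loops of comparisons. The longer ISRE form was in 25.0% of member genes, against 43.8% for the core. No paired analysis was possible because no values per sample were used. Leaving out single samples and protein identity were not run. Depth is unknown, so low levels such as those of the interferon genes limit what could be detected.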

Other observations

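Lists of other cell types gave the following counts. Of 7 Muller glia and astrocyte markers 0 rose and 2 fell in D8 depleted over D8, and 1 rose and 2 fell in D10 over ND. The median log2 fold change of the list was -0.23 and -0.09 in these comparisons. Of all tested genes 5.85% rose and 4.9% fell in the first, and 5.59% and 1.41% in the second. Gfap, an intermediate filament gene of astrocytes and reactive Muller glia, had group means of 2.05 in ND, 6.33 in D6, 4.42 in D8 and 7.95 in D10. Rlbp1, also on the list, went the other way, with 108, 67.2, 71.8 and 48.6 in the same order. Of 6 endothelial markers 1 rose and 1 fell in D10 over ND, and 0 rose and 1 fell in D8 depleted over D8. The 4 plasmacytoid dendritic cell markers include Bst2, which is also one of the 42 genes and the one called in D10 over ND.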
